A study of Mus musculus with 4 samples.

Results

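This report covers 36 genes that encode Polycomb and Trithorax proteins, and the peaks found at them in an experiment that pulled down the long noncoding RNA Malat1. The members were a fixed list of symbols, all of them found among the 21519 protein-coding genes of chromosomes 1 to 19 and X: 10 genes of Polycomb repressive complex 2 (PRC2), 13 of Polycomb repressive complex 1 (PRC1) and 13 Trithorax genes. A member was counted as holding a peak when the peak's summit, its highest point, fell between the gene's ends or at most 5 kb beyond them. The list fixed which genes were counted, not whether they held a peak.

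The cells were 4T1-TGL, a mouse breast cancer line of strain BALB/c with the genotype given as wild type, and no treatment or time is given in the labels. ChIRP (chromatin isolation by RNA purification) pulls an RNA out of sonicated nuclei with antisense probes carrying biotin, and the DNA recovered with it is sequenced. There were 4 libraries with 1 library in each group, namely Malat1 pull-downs with probe sets named Even and Odd, a LacZ pull-down and an input labelled Even. All the values below come from 1 list of 77823 peaks, called on 1 merged treatment against 1 input. No source used here says which pull-downs were merged, so no value has a replicate, the probe sets were not compared, and peaks of DNA recovered with Malat1 cannot be told apart from peaks of the LacZ pull-down.

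Polycomb proteins keep genes silent and Trithorax proteins keep genes active, and both act on histones around the genes they regulate. PRC2 methylates a lysine of histone H3 that marks repressed chromatin, PRC1 ubiquitinates histone H2A and compacts nucleosomes, and most of the Trithorax proteins listed here belong to complexes that methylate another lysine of histone H3, found at active promoters and enhancers. Malat1, an abundant RNA of nuclear speckles, has been described in other work as a partner of Polycomb proteins. The peaks described here concern the DNA of the genes that encode these proteins, and measure neither the proteins nor their binding to the RNA.

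Filtering left 851227 tags in the treatment, a shallow library, and 50030325 in the input. The median peak held 5 tags, and 37.2% of the peaks held 3, the fewest of any peak. Fold enrichment, given by the authors, divides the pileup of tags at a summit by the background expected there from the scaled input, and its median over all peaks was 133.1. At the genome mean input, a height of 3 tags already gives a fold of 179.5, so a large fold can rest on few tags. The background behind a fold, called implied input here, is given in multiples of the genome mean and had a median of 1.4 over all peaks. The gene of the targeted RNA, Malat1 on chromosome 19, held 1 peak, with 2818 tags and a fold of 904, which ranked 97 by fold. Antisense probes can bind this DNA too, and the RNA recovered was not measured.

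A summit was present at 25 of the 36 Polycomb and Trithorax genes (69.4%), against 61.1% of all protein-coding genes. Protein-coding genes with the same lengths as the members predicted 24.3 members with a summit, close to the 25 observed. Among PRC2 genes 8 of 10 held a summit where length class predicted 7.24. Among PRC1 genes 8 of 13 did, where 7.88 were predicted, and among Trithorax genes 9 of 13 did, where 9.23 were predicted. The median length was 28.3 kb over the members and 17.4 kb over all protein-coding genes.

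Members with a summit had a median length of 35.3 kb and those without one a median of 13.6 kb. Under 10 kb, 2 of 7 members held a summit, against 36.5% of the protein-coding genes of that length. Between 10 and 30 kb, 8 of 12 did, against 61.2%. Between 30 and 100 kb, 11 of 13 did, against 81.3%, and over 100 kb all 4 members did, namely Jarid2, Pcgf5, Ash1l and Kmt2c, against 96.9%. The short members were largely PRC1 genes, with 5 of the 7 under 10 kb.

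**Figure D1:**
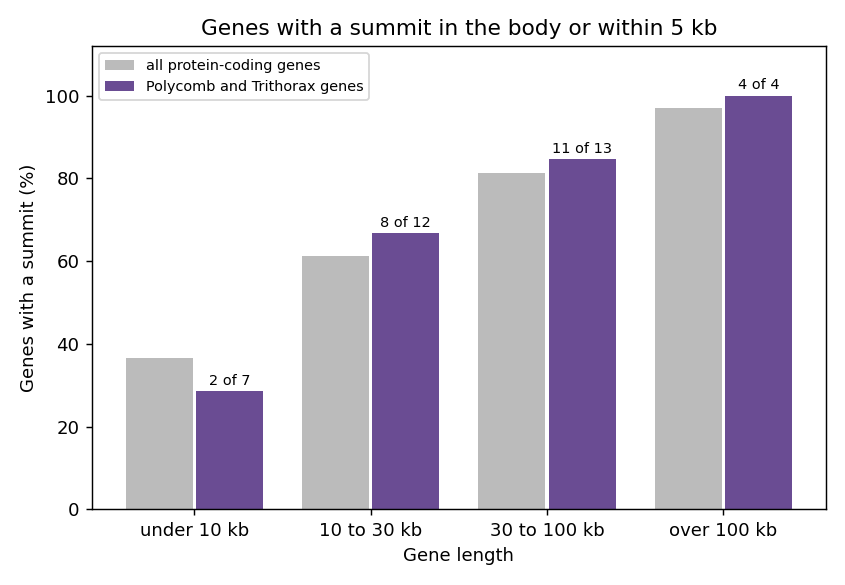
Percent of genes that held at least 1 summit (vertical axis) by class of gene length (horizontal axis), for all protein-coding genes (grey) and for the 36 Polycomb and Trithorax genes (purple, with the number of members above each bar). The bars of the members follow those of all genes, from 2 of 7 members under 10 kb to 4 of 4 over 100 kb; there are no replicates and so no error bars.

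The 36 genes together held 65 summits, 22 at PRC2, 14 at PRC1 and 29 at Trithorax genes. The density of summits from 5 to 500 kb away on both sides of each gene predicted 78.6, a ratio of observed to predicted of 0.827 (95% exact Poisson interval 0.638 to 1.05, which covers the counting error of the observed summits). The ratio was 1.09 for PRC2 genes (0.680 to 1.64), 0.623 for PRC1 genes (0.341 to 1.05) and 0.808 for Trithorax genes (0.541 to 1.16). These 3 intervals overlap, and the differences between the complexes were not tested. Each includes 1 with these flanks, which depends on the setting. With flanks to 1 Mb the ratio was 0.728 over all members (0.562 to 0.928) and 0.559 for PRC1 genes (0.305 to 0.937). In the gene body alone it was 0.753 over all members (0.556 to 0.999) and 0.619 for Trithorax genes (0.373 to 0.966). All intervals included 1 with flanks to 200 kb, without 3-tag peaks, and with summits within 1 kb counted once. The intervals take summits as independent and the predicted number as exact. Of the 22.5 summits predicted for PRC1 genes with flanks to 500 kb, Cbx6 gave 1.78 and Cbx7 5.74. Both genes lie in 1 dense region, 81.5 kb apart, so their flanks largely overlap. Over all protein-coding genes the ratio was 1.03 with flanks to 500 kb, and it is not given for the other settings. More summits than predicted were found at 12 of the 36 members, against 40.9% of all protein-coding genes.

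No member departed from its own flanks beyond the threshold. With an exact two-sided binomial test for each gene and Benjamini-Hochberg adjustment over all 21519 genes, 0.0372% of genes were called higher and 0.0139% lower, and 0 of the 36 members were called, each with an adjusted p of 1. Unadjusted p under 0.05 was reached by 0 members and by 4.6% of all genes. Few summits were predicted at most members, and at this depth even the absence of a summit could not be told from the flanks. Kmt2e, for example, held 0 summits where 2.30 were predicted, with an exact binomial p of 0.269. The test takes summits as independent and describes this list alone.

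**Figure D2:**
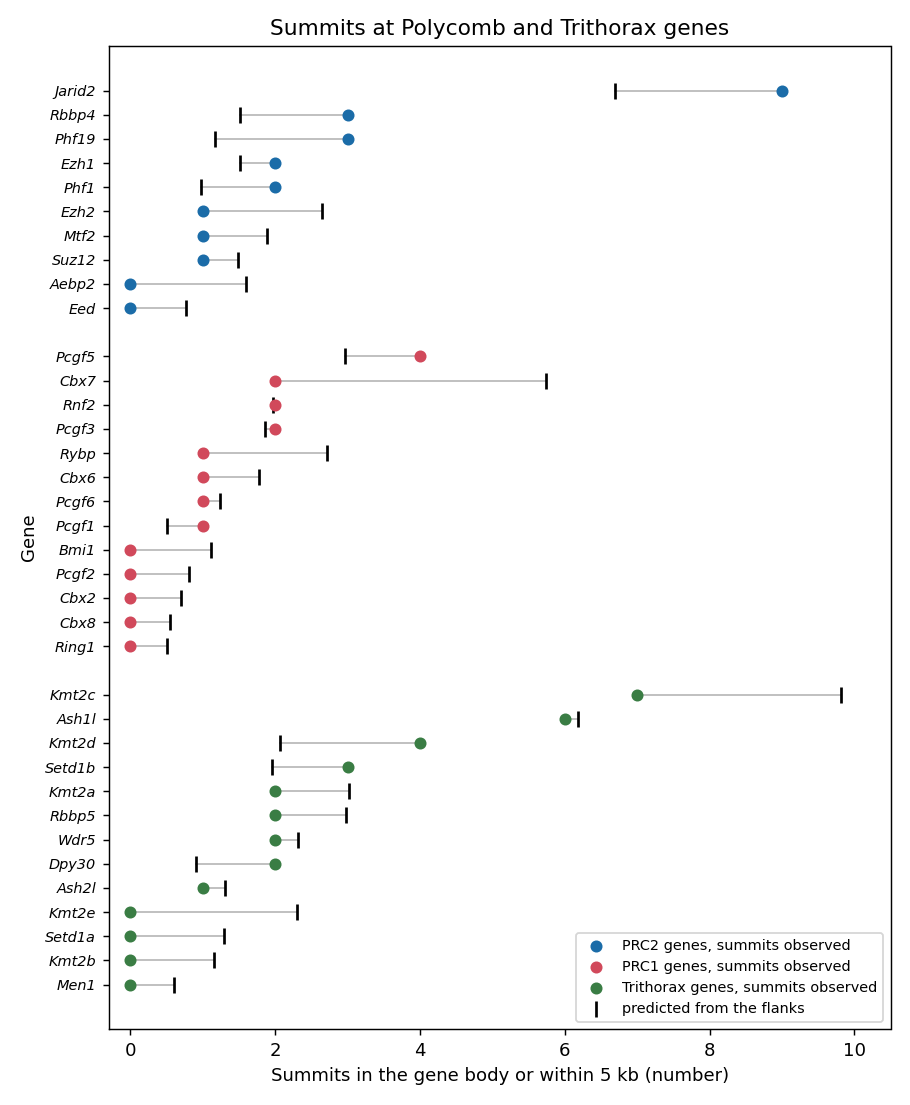
Number of summits counted (horizontal axis) at each of the 36 genes (vertical axis), with the observed number as a filled circle coloured by complex and the number predicted from the flanks as a black bar; there are no replicates. Jarid2 held 9 summits where 6.70 were predicted and Kmt2c 7 where 9.82 were predicted, and 11 genes held none.

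Of the catalytic subunits of PRC2, both held summits in their bodies. Ezh2, the main methyltransferase of dividing cells (chromosome 6, 47530274 to 47595270, gene ID 14056), held 1 summit where 2.65 were predicted. Its peak at 47549172 to 47549555 held 35 tags (95% exact Poisson interval 24.4 to 48.7, counting error only), with a fold of 355 and an implied input of 1.69. Ezh1, its paralog of resting cells (chromosome 11, 101191115 to 101226463), held 2 summits where 1.51 were predicted, and the stronger had 10 tags and a fold of 190.4.

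At the other core genes of PRC2 few summits were predicted, and few were found. Suz12, the scaffold subunit (chromosome 11, 79993106 to 80034123, gene ID 52615), held 1 summit where 1.49 were predicted. Its peak at 80021427 to 80021647 had 15 tags (8.40 to 24.7) and a fold of 415, the highest of the PRC2 genes. Eed, the subunit that reads the methyl mark, held none where 0.77 were predicted, and the nearest summit lay 12.2 kb from the gene. Rbbp4, a histone-binding subunit shared with other complexes, held 3 summits where 1.51 were predicted. The strongest of them had 4 tags and a fold of 177, against medians of 5 tags and a fold of 133.1 over all peaks. Another of the Rbbp4 summits also lay within 5 kb of Sync and the third within 5 kb of Zbtb8os.

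The accessory subunits of PRC2 ranged from 9 summits to none. Jarid2, a DNA-binding cofactor that helps to recruit the complex (chromosome 13, 44730774 to 44921643, gene ID 16468), held 9 summits, the most of any member, where 6.70 were predicted (ratio 1.34, 95% exact interval 0.566 to 2.87). The peaks lay along the gene body with 3 to 14 tags and folds of 96.4 to 333. Of the 200 protein-coding genes nearest to Jarid2 in length, 137 held fewer summits and 56 held more. Phf19, a Polycomb-like protein that binds methylated histone H3, held 3 summits where 1.17 were predicted. All of them lay within 1 kb of one another, 2.64 to 3.22 kb outside the gene on its upstream side, and the strongest had 19 tags and a fold of 229. Its paralog Phf1 held 2 summits where 0.971 were predicted, in a gene-dense stretch where both also lay within 5 kb of Cuta. Mtf2, the third Polycomb-like gene, held a peak of 3 tags. Aebp2, a zinc finger cofactor, held no summit where 1.60 were predicted.

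Few PRC1 genes held a peak with many tags, but the median tag count of their peaks was not lower. A peak with at least 10 tags was present at 1 of the 13, Pcgf3, against 6 of the 10 PRC2 genes, 4 of the 13 Trithorax genes and 26% of all protein-coding genes. Protein-coding genes of the same length classes predicted 3.27 PRC1, 3.20 PRC2 and 4.15 Trithorax genes with such a peak. The median peak held 5.5 tags at PRC1 genes and 5 at both PRC2 and Trithorax genes. Above the median fold of all peaks lay 71.4% of the PRC1 peaks, 59.1% of the PRC2 peaks and 55.2% of the Trithorax peaks. These differences between the complexes were not tested. Pcgf3, a ring finger protein of variant PRC1 (chromosome 5, 108461259 to 108506976, gene ID 69587), held 2 peaks of 16 tags each (9.15 to 26.0), with folds of 426 and 344. The stronger lay at 108491369 to 108491624 and the other 3.63 kb inside the gene from its start.

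Few summits were predicted at the catalytic genes of PRC1. Rnf2, the main ubiquitin ligase, held 2 summits where 1.97 were predicted, with 3 and 7 tags, and its paralog Ring1 held none where 0.505 were predicted. The ring finger partners of the canonical complex, Bmi1 and Pcgf2, held none where 1.11 and 0.811 were predicted (exact binomial p = 0.63 and 1). Of the partners in variant complexes besides Pcgf3, Pcgf1 held 1 (0.511 predicted), Pcgf6 held 1 (1.24 predicted) and Pcgf5 held 4 (2.97 predicted). The distance allowed set some of these counts, since the Pcgf6 summit lay 3.95 kb outside the gene and Pcgf2 held 1 when 10 kb were allowed. The peaks of Pcgf1, Pcgf6 and Pcgf5 held 8, 4 and at most 5 tags, against a median of 5 over all peaks. Rybp, an adaptor of variant PRC1, held a peak of 6 tags where 2.71 summits were predicted. The differences between paralogs were not tested.

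The chromodomain genes listed, whose proteins read the mark left by PRC2, lie in pairs of neighbours. Cbx2 and Cbx8, 5.03 kb apart on chromosome 11, held none where 0.701 and 0.546 were predicted. The same summit was the nearest to both, 33.5 kb from Cbx2 and 46.8 kb from Cbx8. The windows of this pair overlap, so their counts are not separate observations. Cbx6 and Cbx7, 81.5 kb apart on chromosome 15, held 1 and 2 where 1.78 and 5.74 were predicted. Around Cbx6 and Cbx7 the flanks were the densest of any member, with 86.9 and 87.9 summits per Mb and a median implied input of 1.93 and 1.98. The ratio for Cbx7 was 0.348 (95% exact interval 0.0415 to 1.30, exact binomial p = 0.181). The stronger Cbx7 peak had 9 tags, a fold of 221 and an implied input of 1.08. Whether the input moves the number of summits at these genes was not tested.

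The single highest fold and the single highest tag count of the 65 peaks were at Trithorax genes, whose median peak fold, 139.8, was below that of PRC2 (176.2) and PRC1 genes (150.6). Kmt2c, a large histone methyltransferase of enhancers (chromosome 5, 25271795 to 25498855, gene ID 231051), held 7 summits where 9.82 were predicted (ratio 0.713, 0.270 to 1.61). Its peak at 25433023 to 25433155 had the highest fold of any member, 482, on 13 tags, which ranked it 2010 of the 77823 peaks. A second Kmt2c peak, at 25496744 to 25497101 near the start of the gene, held 37 tags with a fold of 397. Rbbp5, a core subunit of the methyltransferase complexes (chromosome 1, 132477348 to 132505665, gene ID 213464), held the peak with the most tags, 39 (27.7 to 53.3), at 132496998 to 132497353. Its fold was 395 at an implied input of 1.82.

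The other Kmt2 genes, the Setd1 genes and Ash1l ranged from several summits to none. Kmt2d, the paralog of Kmt2c, held 4 summits where 2.06 were predicted. The strongest, with 9 tags and a fold of 281, lay 4.45 kb outside the gene and also within 5 kb of Rhebl1 and Dhh. Ash1l, which methylates a different lysine of histone H3, held 6 where 6.18 were predicted, led by a peak of 11 tags and fold 246. Setd1b held 3 where 1.96 were predicted, and its paralog Setd1a held none where 1.29 were predicted. Kmt2a, the gene rearranged in human leukaemias, held 2 peaks of 3 tags each where 3.02 summits were predicted. Its paralog Kmt2b held none where 1.16 were predicted. Kmt2e, at 71.2 kb the longest member without a summit, had 2.3 predicted.

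Of the shared subunits of the methyltransferase complexes, Wdr5 and Dpy30 held 2 summits each and Ash2l 1, every one of them outside the gene body. The peaks of Wdr5 and Ash2l had 3 tags. Men1, which encodes menin, held none where 0.595 were predicted.

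Over the 25 members with a summit, the fold of the strongest peak had a median of 175.1, with a range of 61.6 to 482. The median over all protein-coding genes with a summit was 192.9. By length class the members' medians were 154.1, 162.0, 190.4 and 289.6 from the shortest to the longest class, against 153.0, 168.9, 199.8 and 313.2 over all genes. By complex the medians were 209.9 for PRC2, 159.9 for PRC1 and 165.6 for Trithorax genes. Of the 65 peaks, 21 held 3 tags (32.3%) and 17 held at least 10 (26.2%), against 37.2% and 22.4% of all peaks. Above the 95th percentile of fold over all peaks, 399, lay 3 of the 65, at Kmt2c, Pcgf3 and Suz12. The implied input at the 65 peaks had a median of 1.35 and did not exceed 2.10.

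**Figure D3:**
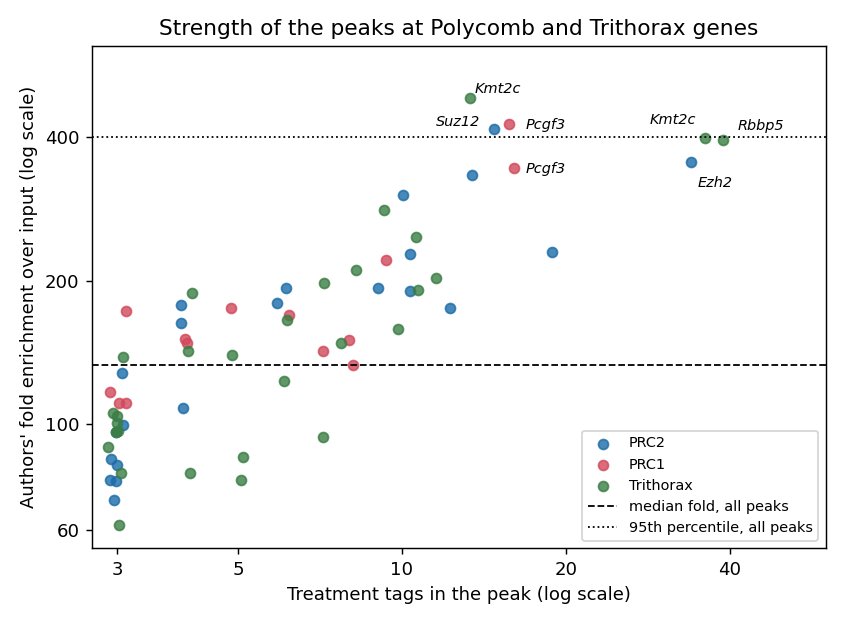
Authors' fold enrichment (vertical axis, log scale) against treatment tags (horizontal axis, log scale) for the 65 peaks at Polycomb and Trithorax genes, coloured by complex, with each point shifted slightly sideways so that equal counts can be seen; dashed and dotted lines are the median (133.1) and 95th percentile (399) of fold over all peaks. Of the points, 3 lie above the upper line, and the peaks with the most tags belong to Rbbp5 (39), Kmt2c (37) and Ezh2 (35).

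None of the 65 summits lay within 1 kb of either end of its gene. Over all protein-coding genes 7.26% of the summits counted at genes did, and such positions made up 7.29% of the length counted at the members. A count of 0 of 65 allows a share of up to 4.62%, a limit that covers counting error and takes the summits as independent. Both values depend on the cutoff. The nearest summits lay just beyond it, at 1.07 kb from an end of Pcgf1 and of Cbx7 and 1.17 kb from one of Dpy30. Within 2 kb of an end lay 7 summits (10.8%), against 14.3% over all genes. Inside the gene body lay 48 (73.8%), against 78.5% over all genes for summits more than 1 kb from an end. The other 17 (26.2%) lay 1 to 5 kb outside, against 14.3%, of which 9 were upstream, 5 downstream and 3 at genes with no strand in the table used. The differences in place were not tested.

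Annotated transcription starts were examined in the same way. The RefSeq promoter table (GRCm38.p6) matched 28 of the 36 members, with 39 starts, and 0 of the 28 genes had a summit within 1 kb of one, against 8.34% of the 17273 protein-coding genes with a listed start. A count of 0 of 28 allows a share of up to 10.7% by the same approximate limit, so this difference was not detectable. Over all listed protein-coding starts, summits per 100 starts ran from 3.41 to 4.43 per kb across the 10 kb on either side, and the highest value was the first kb after the start. The summit nearest to a listed start of a member was that of Dpy30, 1.17 kb upstream, in a peak of 6 tags and fold 165.6.

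**Figure D4:**
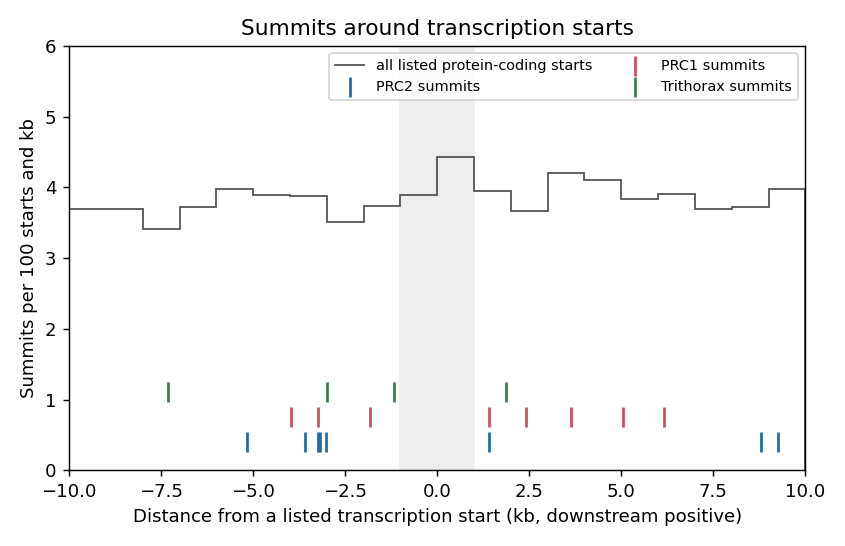
Summits per 100 starts and kb (vertical axis, grey line) by distance from a listed protein-coding transcription start (horizontal axis, kb, downstream positive), with the 20 summits of PRC2, PRC1 and Trithorax genes within 10 kb of their nearest listed start as coloured ticks at an arbitrary height. The line stays between 3.41 and 4.43, and no tick falls in the shaded 1 kb on either side of the start.

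The promoters themselves are mostly rich in the dinucleotide CG, where DNA methylation can occur and which is dense in CpG island promoters, a class that Polycomb and Trithorax proteins are known to occupy. In the 250 bases before a start, the 39 member starts held a median of 21 CG and a range of 1 to 48, against a median of 10 over 21044 protein-coding starts, of which 93.6% held at least 1. At least 10 CG were found at 31 of the 39 and at 50.6% of all protein-coding starts. A summit lay within 1 kb of 7.75% of the protein-coding starts with at least 10 CG and of 7.54% of those with fewer. The sequences below show this range, each running 5′ to 3′ on the strand of the gene with every CG in capitals (CG reads the same on both strands). Suz12, Pcgf3 and Kmt2c are the genes with the highest fold in their complexes, Dpy30 has the summit nearest to a start, and Bmi1 held none.
Suz12 (chr11:79992856-79993105, plus strand, 37 CG): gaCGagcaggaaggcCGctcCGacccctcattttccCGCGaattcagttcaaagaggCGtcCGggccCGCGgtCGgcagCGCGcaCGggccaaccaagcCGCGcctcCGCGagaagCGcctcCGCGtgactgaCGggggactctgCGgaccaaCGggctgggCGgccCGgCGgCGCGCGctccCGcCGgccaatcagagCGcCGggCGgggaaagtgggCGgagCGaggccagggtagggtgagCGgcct
Pcgf3 (chr5:108461009-108461258, plus strand, 16 CG): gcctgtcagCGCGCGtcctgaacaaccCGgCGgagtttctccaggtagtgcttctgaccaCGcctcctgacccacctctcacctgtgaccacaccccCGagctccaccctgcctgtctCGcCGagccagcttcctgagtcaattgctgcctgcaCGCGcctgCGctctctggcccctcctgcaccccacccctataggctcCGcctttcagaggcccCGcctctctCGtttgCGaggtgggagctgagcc
Kmt2c (chr5:25498784-25499033, minus strand, 48 CG): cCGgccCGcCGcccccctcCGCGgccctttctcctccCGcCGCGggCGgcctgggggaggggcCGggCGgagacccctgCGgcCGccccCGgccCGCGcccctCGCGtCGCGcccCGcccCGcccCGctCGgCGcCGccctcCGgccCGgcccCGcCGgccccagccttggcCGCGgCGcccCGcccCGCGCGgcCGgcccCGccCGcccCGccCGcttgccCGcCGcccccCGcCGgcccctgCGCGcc
Dpy30 (chr17:74323945-74324194, minus strand, 1 CG): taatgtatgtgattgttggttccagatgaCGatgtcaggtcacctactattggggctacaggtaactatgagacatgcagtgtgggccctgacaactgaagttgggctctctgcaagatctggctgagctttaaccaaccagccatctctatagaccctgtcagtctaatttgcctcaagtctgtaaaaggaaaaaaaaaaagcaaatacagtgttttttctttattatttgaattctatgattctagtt
Bmi1 (chr2:18676768-18677017, plus strand, 21 CG): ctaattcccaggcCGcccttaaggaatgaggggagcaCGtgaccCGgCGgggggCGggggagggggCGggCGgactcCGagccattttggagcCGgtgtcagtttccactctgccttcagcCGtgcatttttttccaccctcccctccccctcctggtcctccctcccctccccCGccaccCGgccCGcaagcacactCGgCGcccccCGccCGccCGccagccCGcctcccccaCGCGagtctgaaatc

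The Kmt2c sequence holds more CG than nearly all others, since 0.238% of the protein-coding starts have at least as many. The Dpy30 sequence belongs to the outermost of 4 listed starts, and the other 3 of that gene hold 21, 28 and 34 CG. From the starts shown, the summits of the strongest peaks lay 28.4 kb inside Suz12, 30.2 kb inside Pcgf3 and 65.7 kb inside Kmt2c.

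The counts moved with the distance allowed and with the peaks kept. In the gene body alone 20 of the 36 members held a summit (48.2% of all protein-coding genes did), with 1 kb added 20 (51.3%) and with 10 kb added 28 (69.7%). Without peaks of 3 tags 21 members did (49.6%), with peaks of at least the median fold 22 (45.8%), with implied input under 2 times the genome mean 25 (57.8%), and under 1.5 times 18 (46.5%). The shares in brackets are over all protein-coding genes and are not matched for length. Those genes had a median of 17.4 kb against 28.3 kb for the members, so the shares do not show an excess at the members. With the 108 protein-coding genes of the first 3 Mb of chromosomes kept, which held no summit, the main share over all genes was 60.8%. The outermost summits counted lay 4.65 kb from Wdr5 and 4.45 kb from Kmt2d, and the nearest ones left out lay 5.28 kb from Kmt2d and 5.74 kb from Ash1l. Of the members without a summit, Pcgf2 had the nearest, at 6.21 kb. Of the 65 summits, 12 (18.5%) also lay in the window of another protein-coding gene, a share that was not counted over all genes. Among them were the only Ash2l summit (also at Kcnu1) and 1 Dpy30 summit (Memo1). The strongest Setd1b peak, of 10 tags (Rhof), and the 12-tag peak of Ash1l (Dap3) were others. These cannot be assigned to 1 gene. Summits within 1 kb of another summit made up 14 of the 65 (21.5%), among them groups at Jarid2, Phf19, Pcgf5 and Rbbp5, against 15% of all summits. Counts of 3 or more summits were found at 8 of the 36 genes (22.2%), against 24.1% of all protein-coding genes.

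Another 37 genes of the same complexes, their partners and related remodellers were examined in the same way. A summit was present at 30 of the 37 (81.1%), where genes of the same length classes predicted 27.8. The 153 summits compared with 150.0 predicted by the flanks (ratio 1.02, 95% exact Poisson interval 0.863 to 1.19). These genes were longer, with a median of 66.7 kb. Auts2 alone, 1110 kb long, held 47 of the 153 summits, where 42.8 were predicted. Of the 37, 0 passed the binomial test adjusted over all genes. An unadjusted exact binomial p under 0.05 was reached by 4 of the 37 and by 4.6% of all protein-coding genes, a difference that was not tested. At many of these genes few summits were predicted, so a lower count could hardly reach such a p. All 4 had more summits than predicted, a direction that therefore says little. These 4, named after their values were seen, were L3mbtl2, a Polycomb-related protein of variant PRC1 (5 summits, 1.18 predicted, exact binomial p = 0.00953, adjusted p = 0.738), Chd8 (4 and 0.847), Arid1a (9 and 3.72) and Kdm6b, which removes the mark of PRC2 (4 and 1.26). The highest folds were at Auts2, a partner of variant PRC1 (712, 32 tags), Scml2 (658, 23 tags), Asxl2, a cofactor of the enzyme that removes the PRC1 mark (657, 57 tags), Ncoa6 (590, 29 tags) and Psip1 (521, 22 tags).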

How the data were processed

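DNA from 1 Even, 1 Odd and 1 LacZ pull-down and 1 input of 4T1-TGL cells was sequenced as single reads of 76 nt, per the labels' protocols. Peaks were called with MACS 1.4.4 on 1 merged treatment against 1 input, per the file headers, with a p cutoff of 1e-05, a fragment length of 53 bp and the input, 58.8 times as deep, scaled down. Coordinates are those of mm10 (GRCm38), the build named in the submitters' processing notes. No aligner is given in the sources used here. Tags are the deposited counts per peak, fold the deposited ratio, score −10 times the log10 of the MACS p, and height the deposited signal (pileup) at the summit. The deposited FDR is 0 percent for every peak. The peak, interval and summit files were checked to agree in position and score.

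Genes came from the RefSeq table of GRCm38.p6, without exons. The 108 protein-coding genes ending in the first 3 Mb of a chromosome, where no summit lay, were left out, since the first summit of chromosomes 1 to 19 and X is at 3000104. Implied input is height over fold over the genome mean of 0.0167 tags. Length was compared in 4 classes bounded at 10, 30 and 100 kb. Windows and flanks were compared by exact binomial tests (scipy 1.17.1) adjusted over all genes, a procedure tested on simulated data. The simulation drew independent counts and placed changes only at genes with at least 5 predicted summits. It does not cover detection at the many members with fewer predicted. All members are named, the 12 of highest fold with their values, those with 3-tag best peaks by tag count, and 5 other genes by fold. The members and lists were chosen with earlier results of these data known. Intervals cover counting error, and tags are not shown to be independent molecules.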

Additional observations from a re-analysis of the deposited data

How the results depend on the processing

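With the distance allowed changed, the number of members with a summit, 25, ran from 20 in the gene body alone to 28 within 10 kb, and without 3-tag peaks it was 21, all within 1.5 times the main count. With peaks of at least 10 tags it was 11 (30.6%, against 26% of all protein-coding genes, and 10.6 predicted by length class). Among them were 1 PRC1 gene and 4 Trithorax genes. Of the 37 other genes 18 held such a peak (14.2 predicted). With implied input under 1.5, a setting chosen after seeing the data, it was 18, with 5 PRC2 and 5 PRC1 genes. Genes nearest in length (200 each) predicted 24.9 members, and keeping the genes of the first 3 Mb, also chosen after, 24.3. By the binomial test 0 members passed under any of the 5 alternatives, and the ratio of observed to predicted summits ran from 0.728 with flanks to 1 Mb to 0.932 without 3-tag peaks, where Kmt2d alone had an unadjusted p under 0.05. The interval of the ratio excluded 1 over all members and for PRC1 genes with flanks to 1 Mb. In the body alone it excluded 1 over all members and for Trithorax genes. It included 1 in every other case, and no ratio over all protein-coding genes is given at the alternative settings. The PRC1 ratio ran from 0.559 to 0.782 and the Trithorax ratio from 0.619 to 0.969. The PRC2 ratio was below 1 with flanks to 1 Mb (0.897) and with summits within 1 kb counted once (0.883). The median best fold was 183.9 in the body alone and 190.4 without 3-tag peaks. Summits near an end were 0 within 500 bp and 7 within 2 kb. Of 225 counts under alternatives at the members with a summit, 147 stayed within 1.5 times. No paired analysis was possible because each group has 1 library and the peaks come from 1 merged list. A merged treatment of 851227 tags limits every count given here.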
